A study of Mus musculus with 6 samples.

Results

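The enzymes that make serine from glucose, together with the stress-response genes that the transcription factor ATF4 is known to drive, were followed in the fat of NOD mice, which become diabetic through autoimmunity. The set holds 10 genes, Psat1, Phgdh, Psph, Shmt2, Mthfd2, Asns, Trib3, Ddit3, Atf4 and Atf5, out of 18193 genes with a named probe set on the array. They were chosen by a measured value, the low Psat1 signal in AAT-treated fat, and by pathway around it, so the values of these genes in AAT-treated fat against the other groups are given below as a description and carry no test. The stated reason for that choice does not rest on the comparison of diabetic with normoglycemic fat, though earlier results of these data were known when it was made.

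Total RNA from fat was measured on 6 Affymetrix mouse arrays, 2 in each of 3 groups. The first group, AAT, was NOD mice given alpha-1-antitrypsin, a serum inhibitor of proteases, that had stably reverted and were independent of insulin. The second, DIA, was NOD mice with blood glucose above 300 mg/dl on 3 days in a row. The third, NOR, was normoglycemic NOD females 10 weeks old. All mice are of the NOD strain. Sex and age are labelled for the NOR group only, the dose and length of the AAT treatment are not labelled, and the labels do not say which fat depot was taken, whether mice were pooled, or whether each array stands for its own mouse. A p-value therefore measures only how far these arrays spread, which may be technical.

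Serine synthesis branches off glycolysis. PHGDH oxidises 3-phosphoglycerate, PSAT1 moves an amino group from glutamate onto the product, and PSPH removes the phosphate to give serine, after which SHMT2 and MTHFD2 pass its carbon into mitochondrial folate. When cells lack amino acids or their ER or mitochondria are stressed, kinases phosphorylate the translation factor eIF2alpha, ATF4 protein is then made from mRNA already present, and it switches on these enzymes together with Asns, Trib3, Ddit3 and Atf5. Because that step is one of translation, the level of Atf4 mRNA need not follow the activity of the protein. In fat, serine synthesis draws on the same glycolytic carbon as lipid synthesis, and TRIB3 is known in the mouse to restrain both AKT and acetyl-CoA carboxylase.

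The arrays differed in technical measures that bear on these genes. For the beta-actin control, probes at the 3′ end read higher than probes at the 5′ end where RNA is broken or copied in part, and that ratio was 9.08 and 5.87 in AAT, 15.2 and 15.5 in DIA, and 3.63 and 4.30 in NOR fat. Spiked-in hybridisation controls, which should read alike on every array, averaged 74823 on AAT 2 and 114483 on NOR 1, against 21242 to 41701 on the other 4 arrays, so these 2 arrays are called bright below. Of 9 measured adipocyte markers 7 had signals of 927 or more on every array, while Lep was as low as 18.7 (DIA 1) and Aqp7 as low as 100 (AAT 2), and Ucp1 of brown fat stayed at 124 or less. By limma, 0 of 13058 genes passed an adjusted p of 0.05 in any of the 3 contrasts, and an unadjusted p under 0.05 was reached by 624 genes (4.78%) for AAT against DIA, 672 (5.15%) for AAT against NOR and 1291 (9.89%) for DIA against NOR.

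The 10 genes were read by 23 probe sets, short groups of probes against one transcript, with a single gene symbol, of which 18 had a mean signal over the 6 arrays above 164 and were kept. For each gene the kept probe set with the highest mean signal stood for it, and all 10 genes had one. In 4 genes (Phgdh, Shmt2, Trib3 and Atf4) that probe set carries the _x_at suffix, by which the manufacturer marks probes that may also match other transcripts. That of Psat1 carries the suffix _s_at, and whether its probes match other transcripts was not checked. Differences are on the scale of log2(signal + 74), which understates those of weak genes, and stand with the SE of the limma fit over all genes, n = 2 arrays per group.

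Psat1, the transaminase at the middle of the serine pathway, had signals of 1441 and 1195 in AAT fat, against 4462 and 5624 in DIA fat and 4797 and 3417 in NOR fat (probe set 1454607_s_at). Both AAT arrays lay below all 4 other arrays, and the DIA and NOR ranges overlapped. On the log2 scale the level was 10.44 ± 0.18 in AAT, 12.31 ± 0.23 in DIA and 12.01 ± 0.34 in NOR fat (SD, n = 2). The difference was −1.87 ± 0.33 for AAT minus DIA, a ratio of 0.273, and −1.57 ± 0.33 for AAT minus NOR, a ratio of 0.336. Of the 13058 genes 0.23% had a lower difference for AAT minus DIA and 0.214% for AAT minus NOR. These are the values for which Psat1 was chosen.

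The second probe set of Psat1, 1451064_a_at, gave 1003 and 1373 in AAT, 2268 and 2529 in DIA, and 3890 and 2576 in NOR fat. It placed the AAT arrays lowest as well, with differences of −0.98 for AAT minus DIA and −1.38 for AAT minus NOR. Between DIA and NOR fat the probe sets had opposite signs, 0.30 ± 0.33 for the stronger one (limma adjusted p = 0.755) and −0.39 for the other. The mean of both probe sets gave −1.43 for AAT minus DIA, the value without the bright arrays was −1.75 for AAT minus DIA and −1.20 for AAT minus NOR, and that with the beta-actin ratio as a covariate was −1.75 for AAT minus DIA. The part of RNA quality in the Psat1 values cannot be told apart from that of the groups.

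Promoters of 3 genes are shown because Psat1 had the largest difference of the set while Asns and Trib3 are textbook ATF4 targets. Each is RefSeq's window of 300 bases on GRCm38.p6, with 250 bases before and 50 after the gene's start, in the direction of the gene, at chr19:15925010-15925309 for Psat1 (1 of 2 listed starts), chr6:7693160-7693459 for Asns and chr2:152344011-152344310 for Trib3, all on the minus strand. Capitals mark matches on either strand to the ATF4 composite element written TGATGNAA or to TGNTGCAAT, a related form searched after these sequences had been read.
Psat1: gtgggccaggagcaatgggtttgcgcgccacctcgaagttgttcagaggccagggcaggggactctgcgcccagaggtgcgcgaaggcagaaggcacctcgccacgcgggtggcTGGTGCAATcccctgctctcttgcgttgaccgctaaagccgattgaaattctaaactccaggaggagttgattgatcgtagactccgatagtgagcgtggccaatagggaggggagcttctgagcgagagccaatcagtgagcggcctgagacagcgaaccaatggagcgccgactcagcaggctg
Asns: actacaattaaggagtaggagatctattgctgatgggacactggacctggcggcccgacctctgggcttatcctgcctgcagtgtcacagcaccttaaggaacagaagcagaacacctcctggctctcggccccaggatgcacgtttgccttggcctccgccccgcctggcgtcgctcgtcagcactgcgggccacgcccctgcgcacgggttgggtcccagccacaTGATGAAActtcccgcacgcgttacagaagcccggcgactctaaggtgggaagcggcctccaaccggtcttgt
Trib3: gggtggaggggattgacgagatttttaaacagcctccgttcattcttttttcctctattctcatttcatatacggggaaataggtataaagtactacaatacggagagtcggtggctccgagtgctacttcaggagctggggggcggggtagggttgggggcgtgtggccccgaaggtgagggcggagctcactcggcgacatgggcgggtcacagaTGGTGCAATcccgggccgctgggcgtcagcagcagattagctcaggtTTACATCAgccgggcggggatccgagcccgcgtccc

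TGATGNAA occurred in the windows of Asns, where it begins 23 bases before the start, and of Trib3, where it lies on the opposite strand from base 15 after the start. TGNTGCAAT occurred in those of Psat1, beginning 136 bases before the start, and of Trib3, beginning 33 bases before it, as TGGTGCAAT in both. A sequence that matches both forms would be counted under each, and none of these did. Of all 32851 promoter windows, 3.97% held the first form and 0.673% the second. The other 7 genes held neither form in any listed window, and the cyclic AMP element TGACGTCA was in 0 of the 12 windows of the set (1.79% of all windows). A match is a run of letters in this window and was not tested for binding.

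Phgdh, which commits carbon to serine, had signals of 6504 and 2952 in AAT fat, against 9415 and 14102 in DIA fat and 5186 and 7175 in NOR fat (1437621_x_at). The DIA arrays were above all others, and AAT 2 was below all others, while AAT 1 lay between the NOR arrays. The difference was −1.38 ± 0.45 for AAT minus DIA and −0.47 ± 0.45 for AAT minus NOR, and without AAT 2 these were −0.82 and 0.09. The DIA minus NOR difference was 0.91 ± 0.45 (limma adjusted p = 0.543), and the difference did not pass the test.

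All 4 probe sets of Phgdh with 1 symbol gave lower values in AAT than in DIA fat, from −1.38 to −0.27, and lower values in AAT than in NOR fat, from −0.81 to −0.47. Between DIA and NOR fat they split, with 0.91 and 0.18 on one side and −0.02 and −0.21 on the other. All 4 are of the _x_at kind, and 2 further probe sets that list Phgdh beside a predicted gene gave −1.58 and −0.12 for AAT minus DIA. With the beta-actin ratio as a covariate the Phgdh difference turned for AAT minus DIA (0.58) and for DIA minus NOR (−2.67), and the mean of its probe sets gave −0.80 for AAT minus DIA. The beta-actin ratio moves with the groups, and its part in the Phgdh values cannot be told apart from theirs.

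**Figure D1:**
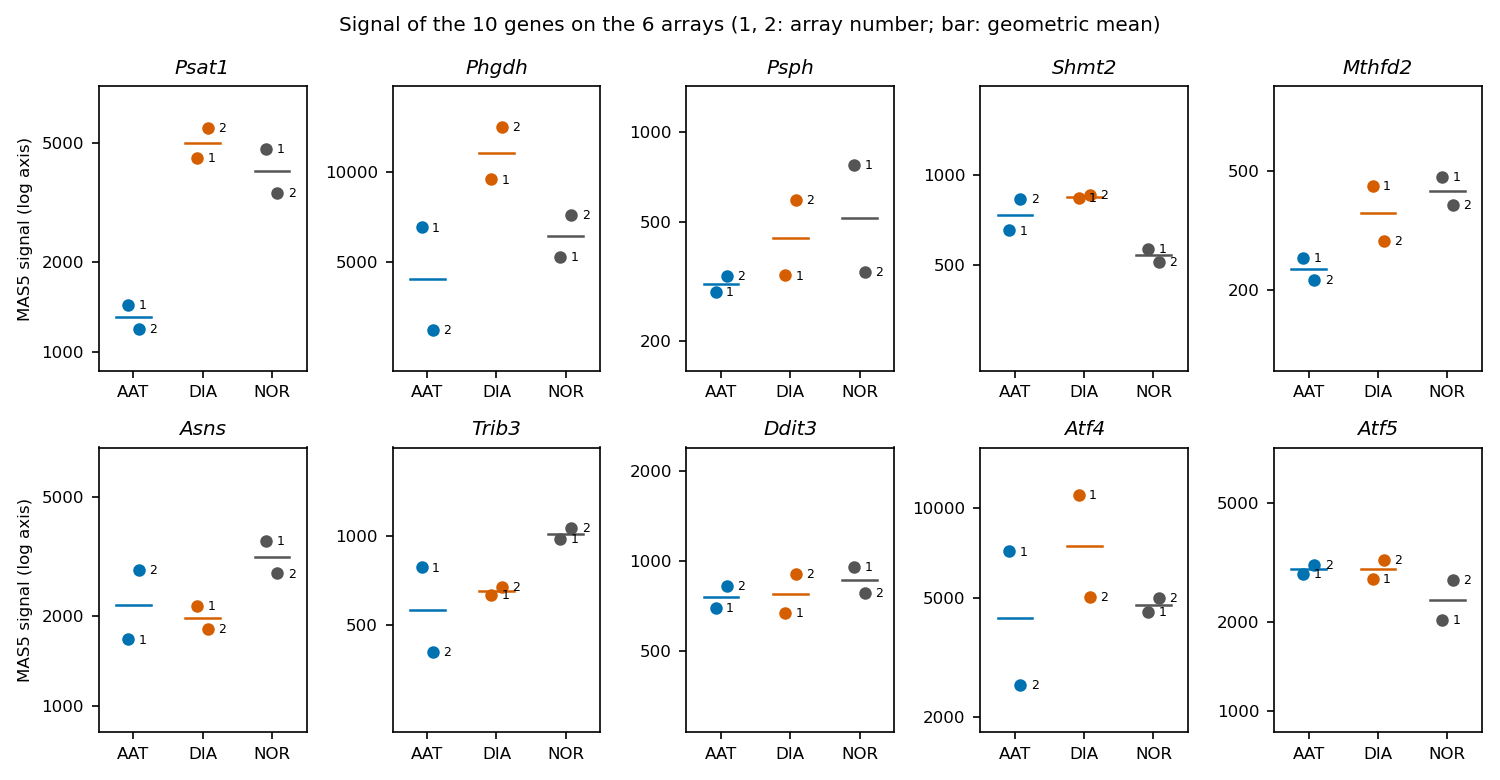
MAS5 signal (log axis) of the 10 genes on each array, AAT-treated, diabetic and normoglycemic from left to right, with the number of each array and a bar at the geometric mean. For Psat1 the AAT arrays sit at 1441 and 1195, below all the others, and for Atf4 the AAT arrays lie far apart at 7152 and 2557.

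Psph, which completes serine, had weak signals of 291 and 330 in AAT fat, against 331 and 591 in DIA fat and 777 and 341 in NOR fat (1415673_at, its single probe set). AAT 2 and DIA 1 were almost equal, so the AAT arrays were lowest by a narrow margin. The difference was −0.43 ± 0.45 for AAT minus DIA and −0.63 ± 0.45 for AAT minus NOR, both near the SE, and the first was −0.08 without DIA 2 and the second −0.11 without NOR 1. For DIA minus NOR it was −0.20 ± 0.45 (limma adjusted p = 0.884), and it turned to 0.32 without NOR 1 and to 0.16 without DIA 1.

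Mthfd2, the mitochondrial folate enzyme that follows SHMT2, had signals of 256 and 215 in AAT fat, against 445 and 291 in DIA fat and 478 and 384 in NOR fat (1419253_at). The AAT arrays were the lowest 2 of the 6. The difference was −0.49 ± 0.38 for AAT minus DIA and −0.70 ± 0.38 for AAT minus NOR, and for AAT minus DIA it was −0.24 without DIA 1 and −0.75 without DIA 2. A second probe set, 1419254_at, was under the signal filter and gave −0.42 and −0.65. DIA minus NOR gave −0.21 ± 0.38 (limma adjusted p = 0.854).

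Shmt2, which splits serine into glycine and a folate-bound carbon, had signals of 654 and 834 in AAT fat, against 840 and 858 in DIA fat and 567 and 514 in NOR fat (1455084_x_at). Here NOR fat was lowest and AAT fat lay between the other groups. The difference was −0.18 ± 0.31 for AAT minus DIA and 0.41 ± 0.31 for AAT minus NOR, and the first was −0.02 without AAT 1. For DIA minus NOR it was 0.59 ± 0.31 (limma adjusted p = 0.555). The other kept probe set gave −0.16 for DIA minus NOR and −0.62 for AAT minus NOR, and the 2 weak ones gave 0.50 and 0.44 for AAT minus DIA, so the probe sets of Shmt2 do not share a direction.

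The serine and folate enzymes as a group were lower in AAT than in DIA fat in 5 of 5 genes (48.8% of all genes were), with a median difference of −0.49, where the median over all 13058 genes was 0.01. In all 5, by the probe set that stood for each gene, the AAT and DIA arrays did not overlap, with AAT lower (15.9% of all genes). For Psph and Shmt2, though, the nearest arrays were 330 against 331 and 834 against 840. In the kept probe set 1426658_x_at of Phgdh these groups overlapped, at 1415 and 1756 in AAT and 1368 and 2686 in DIA fat. They also overlapped in the kept probe set 1455985_x_at of Shmt2, at 97.9 and 257 in AAT and 248 and 261 in DIA fat. Against NOR fat 4 of 5 were lower (52.0% of all genes), with a median of −0.63, and 3 of them did not overlap (16.1% of all genes). Together with Shmt2, 4 of 5 did not overlap in either direction (32.1% of all genes). Psat1 belongs to this group and was the reason for choosing it. Between DIA and NOR fat the same enzymes had a median of 0.30, with 3 higher and 2 lower (53.6% of all genes were lower), and 0 reached an unadjusted p under 0.05 (9.89% of all genes did).

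Of the ATF4 targets outside serine synthesis, Asns, which makes asparagine, had signals of 1669 and 2853 in AAT fat, against 2155 and 1805 in DIA fat and 3578 and 2775 in NOR fat (1451095_at). AAT 1 was the lowest array and AAT 2 lay between the NOR arrays, so the groups overlapped in both comparisons with AAT fat. The difference was 0.14 ± 0.36 for AAT minus DIA and −0.51 ± 0.36 for AAT minus NOR, and without AAT 2 the first was −0.23 and without AAT 1 the second was −0.14. DIA minus NOR gave −0.66 ± 0.36 with no overlap (limma adjusted p = 0.569). The second probe set, 1433966_x_at, gave −0.76 for AAT minus DIA and 0.12 for DIA minus NOR, the opposite signs.

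Trib3, a pseudokinase that is induced by ATF4 and binds AKT, had signals of 782 and 407 in AAT fat, against 633 and 674 in DIA fat and 971 and 1061 in NOR fat (1456225_x_at). The NOR arrays were the highest 2, and the DIA arrays lay between the AAT arrays. The difference was −0.18 ± 0.36 for AAT minus DIA, −0.76 ± 0.36 for AAT minus NOR and −0.58 ± 0.36 for DIA minus NOR (limma adjusted p = 0.6 for the last). Without AAT 2 the first was 0.24 and the second −0.35, so no sign can be given for AAT minus DIA. With the beta-actin covariate the first was 1.12. The other probe set of Trib3 had the same signs with smaller sizes, −0.01, −0.24 and −0.23.

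Ddit3, which encodes the stress factor CHOP, had signals of 697 and 824 in AAT fat, against 667 and 903 in DIA fat and 956 and 782 in NOR fat (1417516_at). All groups overlapped. The differences were −0.03 ± 0.32 for AAT minus DIA, −0.18 ± 0.32 for AAT minus NOR and −0.14 ± 0.32 for DIA minus NOR (limma adjusted p = 0.882 for the last), and the first was 0.17 without DIA 2. A second probe set under the filter, 1443897_at, had 85.9 and 27.3 in AAT, 208 and 293 in DIA, and 167 and 49.9 in NOR fat.

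Atf4 itself had signals of 7152 and 2557 in AAT fat, against 11032 and 5030 in DIA fat and 4493 and 4984 in NOR fat (1438992_x_at). The arrays of the AAT group differed more than any group means did, with an SD of 1.03 in AAT, 0.79 in DIA and 0.10 in NOR fat on the log2 scale. The difference was −0.79 ± 0.54 for AAT minus DIA, −0.14 ± 0.54 for AAT minus NOR and 0.65 ± 0.54 for DIA minus NOR (limma adjusted p = 0.68 for the last). Without AAT 2 the first was −0.06 and the second 0.59. The probe set 1448135_at, with 4085 and 2427 in AAT, 3355 and 2133 in DIA, and 3563 and 3458 in NOR fat, gave 0.23 for AAT minus DIA and −0.38 for DIA minus NOR. The signs of the Atf4 probe sets were thus opposite in both, and no direction can be given for Atf4 mRNA.

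Atf5, a relative of ATF4 tied to the mitochondrial stress response, had signals of 2888 and 3099 in AAT fat, against 2774 and 3222 in DIA fat and 2023 and 2760 in NOR fat (1425927_a_at, its single probe set). The AAT arrays lay within the DIA range, and the NOR arrays were the lowest 2. The difference was 0.00 ± 0.32 for AAT minus DIA, 0.33 ± 0.32 for AAT minus NOR and 0.33 ± 0.32 for DIA minus NOR (limma adjusted p = 0.72 for the last).

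**Figure D2:**
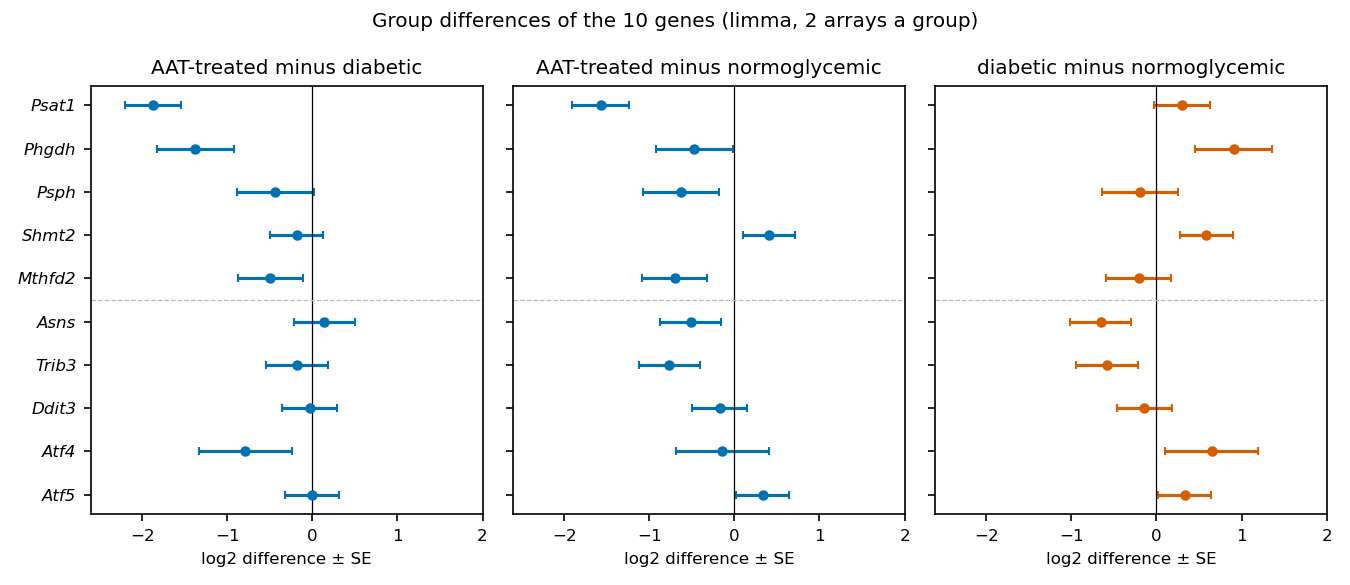
Log2 differences with SE of the 10 genes for AAT-treated minus diabetic, AAT-treated minus normoglycemic and diabetic minus normoglycemic fat, with serine and folate enzymes above the dashed line and Atf4 with its other targets below it. Psat1 lies at −1.87 and −1.57 in the panels with AAT fat and at 0.30 in the third, and Atf5 lies at 0.00 in the first.

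The Atf4, Atf5, Asns, Trib3 and Ddit3 group had a median of −0.03 for AAT minus DIA, with 3 of 5 lower and 0 of 5 without overlap (33.8% of all genes in either direction). For AAT minus NOR its median was −0.18 and 4 of 5 were lower, and for DIA minus NOR it was −0.14 with 3 of 5 lower. Over all 10 genes the medians were −0.31 for AAT minus DIA, −0.49 for AAT minus NOR and 0.08 for DIA minus NOR, where all genes had 0.01, −0.03 and −0.06. The comparisons of AAT fat share the AAT arrays, and AAT 2 was the lowest array for 5 of the 10 genes and AAT 1 for 2. In DIA against NOR fat, 4 of 10 genes had higher DIA values without overlap and 2 had lower ones, where 20.2% and 24.5% of all genes did (44.7% in either direction), and 0 of 10 passed limma's adjusted threshold, as did 0.0% of all genes.

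**Figure D3:**
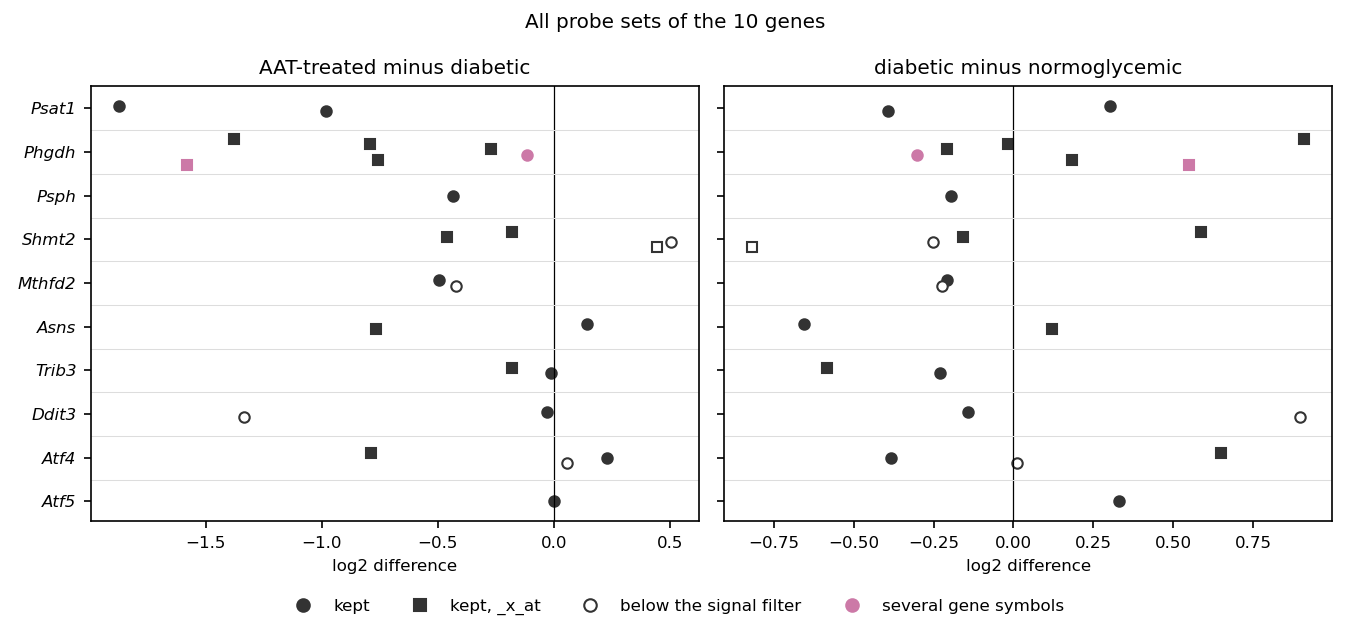
Log2 differences of every probe set of the 10 genes, AAT-treated minus diabetic on the left and diabetic minus normoglycemic on the right, with squares for _x_at probe sets, open symbols for those under the signal filter and pink for those with several gene symbols. All kept probe sets of Psat1 and Phgdh lie left of 0 in the first panel, while those of Asns and Atf4 lie on both sides of 0 in each panel.

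Bulk tissue cannot tell fewer cells of a type from less RNA per cell, and several cell type markers moved with the groups. The 9 measured smooth muscle markers summed to 63925 and 97446 in AAT fat, against 15897 and 10960 in DIA fat and 8198 and 32977 in NOR fat. The 9 measured B and plasma cell markers summed to 43472 and 20616 in AAT, 15558 and 20863 in DIA, and 13443 and 17053 in NOR fat. The smooth muscle sum was highest on both arrays of AAT fat, where Psat1 was lowest. The B and plasma cell sums of AAT 2 and DIA 2 were close, but Xbp1 weighs most in these sums on every array except AAT 1. Jchain, an antibody joining chain, was highest on both AAT arrays, at 9846 and 5310, against 350 and 2557 in DIA and 802 and 419 in NOR fat. Of the 7 kept B and plasma cell markers 5 were higher and 2 lower for AAT minus DIA, among them Ighm, an antibody heavy chain, at 19419 and 3925 in AAT, 301 and 1738 in DIA, and 153 and 315 in NOR fat, and Xbp1, a factor of secretory cells, at 12091 and 7885 in AAT, 12768 and 13949 in DIA, and 11011 and 14885 in NOR fat. The part of these cells in the Psat1 values was not tested.

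The 9 measured adipocyte markers summed to 200569 and 307663 in AAT fat, against 193872 and 317437 in DIA fat and 480812 and 300734 in NOR fat, sums in which Fabp4 weighs most. For AAT minus NOR 9 of 9 were lower (52.0% of all genes), with a median of −0.55. In 4 of them (Adipoq, Cidec, Retn and Pparg) the groups did not overlap (16.1% of all genes), with Retn at 22319 on AAT 1 and 22618 on NOR 2. An unadjusted limma p under 0.05 was reached by 0 of 9 (5.15% of all genes). For AAT minus DIA 5 of 9 were lower (48.8% of all genes), with a median of −0.43 and 1 lower without overlap (15.9% of all genes). For DIA minus NOR 5 of 9 were lower (53.6% of all genes), with a median of −0.29. There 3 were lower without overlap and 1 higher (24.5% and 20.2% of all genes). Group means of the adipocyte markers were thus lower in AAT than in NOR fat, as that of Psat1 was. The part of adipocytes in the Psat1 values was not tested. The 10 measured macrophage markers, of which 9 were kept, summed to 15861 and 10156 in AAT, 15605 and 28264 in DIA, and 7373 and 7461 in NOR fat, with Itgam at 72.3 or less. The sums were lowest in NOR fat, as were Atf5 and the strongest probe set of Shmt2, though not the other kept probe set of Shmt2. Of the 9 kept markers 9 were higher for DIA minus NOR, while 7 were higher and 2 lower for AAT minus NOR (52.0% of all genes were lower). Cd163 was lower in AAT than in NOR fat without overlap, at 208 and 124 against 543 and 522. The part of macrophages in the Atf5 and Shmt2 values was not tested. Of 11 markers of pancreatic acinar cells 8 were measured and 3 kept, the sums ran from 1227 to 1608 in AAT, 1230 to 1373 in DIA and 1960 to 2116 in NOR fat, and Cpa1 was at 11.1 or less and Cpb1 at 114 or less on every array. These sums were highest in NOR fat, as Trib3 was, and Cela3b ran the same way, at 210 and 327 in AAT, 195 and 237 in DIA, and 818 and 802 in NOR fat. Cela1, the other strong marker, overlapped between the groups, at 787 and 832 in AAT, 517 and 770 in DIA, and 795 and 700 in NOR fat. The height of the NOR sums thus rests mainly on 1 gene, and the part of acinar cells in the Trib3 values was not tested. The 11 mammary epithelial markers summed to 12061 on AAT 2 against 1760 on AAT 1, 2163 to 3518 in DIA and 2317 to 4756 in NOR fat, while Psat1 was at 1195 on AAT 2 and 1441 on AAT 1. The 6 mesothelial markers summed to 6665 and 8590 in AAT, 4794 and 4359 in DIA, and 4421 and 2961 in NOR fat, and the 7 brown fat markers, of which 5 were kept, to 1613 and 1838 in AAT, 3266 and 1523 in DIA, and 3592 and 2143 in NOR fat. The mesothelial sums were highest in AAT fat, where Krt19 was at 442 on AAT 1 and 2501 on AAT 2. Of the 6 mesothelial markers 4 were higher and 2 lower for AAT minus DIA, and 6 were higher for AAT minus NOR. The brown fat sums were lower in AAT than in NOR fat without overlap. Of the 5 kept brown fat markers, though, 3 were lower and 2 higher. Cox8b weighs most in the NOR sums, at 619 and 270 in AAT and 1883 and 970 in NOR fat. The part of mesothelial and brown fat cells in the values of the 10 genes was not tested.

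The genes whose pattern over the 6 arrays was nearest to that of Psat1 were Wfdc21, Paqr9, Tff2, Abra and Gzma. Nearness was the root mean square difference between profiles centred on their own mean, and it was 0.27 log2 units for Wfdc21, 0.30 for Paqr9, 0.31 for Tff2 and Abra, and 0.32 for Gzma. Wfdc21 had 599 and 419 in AAT, 1353 and 2751 in DIA, and 1403 and 1500 in NOR fat. Paqr9 had 168 and 58.5 in AAT, 750 and 597 in DIA, and 446 and 367 in NOR fat. Tff2, Abra and Gzma were weak, at 84.5 and 50.8, 72.8 and 11.3, and 97.6 and 52.8 in AAT fat. These signals lie near or below the 74 added before the logarithm. They are also below the filter of 164, which these genes passed through their DIA and NOR signals. The closest of the other 9 genes was Phgdh, at 0.59 and rank 272 among all kept genes, followed by Mthfd2 at rank 444 and Psph at 572.

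Other genes of the amino acid and stress response, 70 in 6 lists, had 60 members kept. In AAT against DIA fat 30 were higher and 30 lower, with a median of 0.01, as for all genes. By limma 0 passed the adjusted threshold in any contrast, and at an unadjusted p under 0.05 there were 3 higher and 1 lower for AAT minus DIA (2.95% and 1.83% of all genes), 4 higher and 1 lower for AAT minus NOR (3.43% and 1.72%), and 3 higher and 2 lower for DIA minus NOR (5.27% and 4.62%).

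Among 14 kept stress effectors, Ddit4, which restrains mTORC1 and is also induced by glucocorticoids and low oxygen, had signals of 9347 and 5523 in AAT fat, against 1663 and 1337 in DIA fat and 2128 and 1445 in NOR fat. Both AAT arrays were above all others. The difference was 2.21 ± 0.38 for AAT minus DIA (limma adjusted p = 0.388) and 1.99 ± 0.38 for AAT minus NOR (limma adjusted p = 0.786), the opposite direction to Psat1, and neither passed after adjustment.

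Chac1, an enzyme that degrades glutathione and a sensitive ATF4 target, had signals of 837 and 792 in AAT fat, against 433 and 545 in DIA fat and 1469 and 1271 in NOR fat. No groups overlapped, with DIA lowest and NOR highest. The difference was −1.36 ± 0.31 for DIA minus NOR (limma adjusted p = 0.459) and 0.66 ± 0.31 for AAT minus DIA (limma adjusted p = 0.961). The lipoprotein receptor gene Vldlr had 5019 and 6312 in AAT, 3010 and 4198 in DIA, and 918 and 2200 in NOR fat, and differed by 1.92 ± 0.44 for AAT minus NOR (limma adjusted p = 0.786) and 1.27 ± 0.44 for DIA minus NOR (limma adjusted p = 0.482). The list as a whole had a median of 0.19 for AAT minus DIA and 0.05 for DIA minus NOR.

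The 12 aminoacyl-tRNA synthetases, which charge tRNAs and are in part ATF4 targets, had a median of −0.07 for AAT minus DIA and 0.38 for DIA minus NOR, with 8 of 12 higher in DIA fat. Mars1, for methionine, had 1398 and 798 in AAT, 2153 and 2563 in DIA, and 1134 and 1125 in NOR fat. It differed by −1.10 ± 0.35 for AAT minus DIA (limma adjusted p = 0.961) and 1.01 ± 0.35 for DIA minus NOR (limma adjusted p = 0.482). Yars, Lars, Iars and Cars, also named by the rule, lay between −0.49 and 0.62 in all 3 contrasts.

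The 9 kept amino acid transporters had medians of 0.03 for AAT minus DIA, 0.11 for AAT minus NOR and 0.24 for DIA minus NOR. Slc7a5, the large neutral amino acid carrier, had 516 and 147 in AAT, 379 and 176 in DIA, and 55.2 and 67.2 in NOR fat, so both NOR arrays were lowest. It differed by 1.42 ± 0.62 for AAT minus NOR (limma adjusted p = 0.923) and 1.32 ± 0.62 for DIA minus NOR (limma adjusted p = 0.527). Slc1a5, a glutamine carrier, had 4766 and 733 in AAT, 3435 and 13851 in DIA, and 2169 and 2582 in NOR fat, with a spread inside AAT and DIA fat as wide as its difference of −1.82 ± 0.85 for AAT minus DIA (limma adjusted p = 0.961). Slc38a2 differed by 1.06 ± 0.48 for DIA minus NOR and Slc38a1 by −0.67 ± 0.34.

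Among 9 kept mitochondrial and amino acid enzymes, Aldh18a1, the first step of proline synthesis, had 889 and 849 in AAT, 641 and 646 in DIA, and 269 and 331 in NOR fat, with no overlap between groups. It differed by 1.34 ± 0.31 for AAT minus NOR (limma adjusted p = 0.786) and 0.94 ± 0.31 for DIA minus NOR (limma adjusted p = 0.482). The transaminase Got1 had 198 and 476 in AAT, 47.1 and 132 in DIA, and 298 and 253 in NOR fat, and differed by 1.29 ± 0.54 for AAT minus DIA (limma adjusted p = 0.961). The transaminase Gpt2 differed by −0.86 ± 0.47 and Bcat1 by −0.01 ± 0.50 for AAT minus DIA. Of the 9 enzymes 6 were higher and 3 lower for AAT minus DIA, with a median of 0.28, and 3 were higher and 6 lower for AAT minus NOR, with a median of −0.25.

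Of the folate and glycine enzymes 8 of 13 were kept, with medians of −0.11 for AAT minus DIA, −0.25 for AAT minus NOR and −0.13 for DIA minus NOR. For AAT minus DIA 1 was higher and 7 lower (48.8% of all genes were lower), and 0 were without overlap (33.8% of all genes). For AAT minus NOR 2 were higher and 6 lower (52.0% of all genes were lower). Shmt1, the cytosolic counterpart of Shmt2, had 1141 and 8625 in AAT, 2636 and 1975 in DIA, and 15745 and 5075 in NOR fat. Its highest signals were on the bright arrays NOR 1 and AAT 2, and its difference was −1.94 ± 0.86 for DIA minus NOR (limma adjusted p = 0.507). Mthfd1 differed by 1.01 ± 0.47 for DIA minus NOR, and Gcsh and Aldh1l1 by −0.35 ± 0.36 and −0.59 ± 0.42 for AAT minus DIA.

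Upstream of ATF4, the 8 kept genes of the eIF2alpha pathway had medians of 0.32 for AAT minus DIA and −0.19 for DIA minus NOR. The kinases Eif2ak1, Eif2ak2, Eif2ak3 and Eif2ak4, which phosphorylate eIF2alpha, differed by −0.54, 0.41, −0.21 and 0.23 for AAT minus DIA. Nfe2l2, an antioxidant regulator activated beside ATF4, had 2530 and 3157 in AAT, 1666 and 1441 in DIA, and 1921 and 2700 in NOR fat, and differed by 0.84 ± 0.33 for AAT minus DIA (limma adjusted p = 0.961). Eif2b1, a subunit of the exchange factor that phosphorylated eIF2alpha blocks, differed by −1.34 ± 0.51 for DIA minus NOR (limma adjusted p = 0.491), with its highest signals, 930 and 1267, on the bright arrays AAT 2 and NOR 1.

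**Figure D4:**
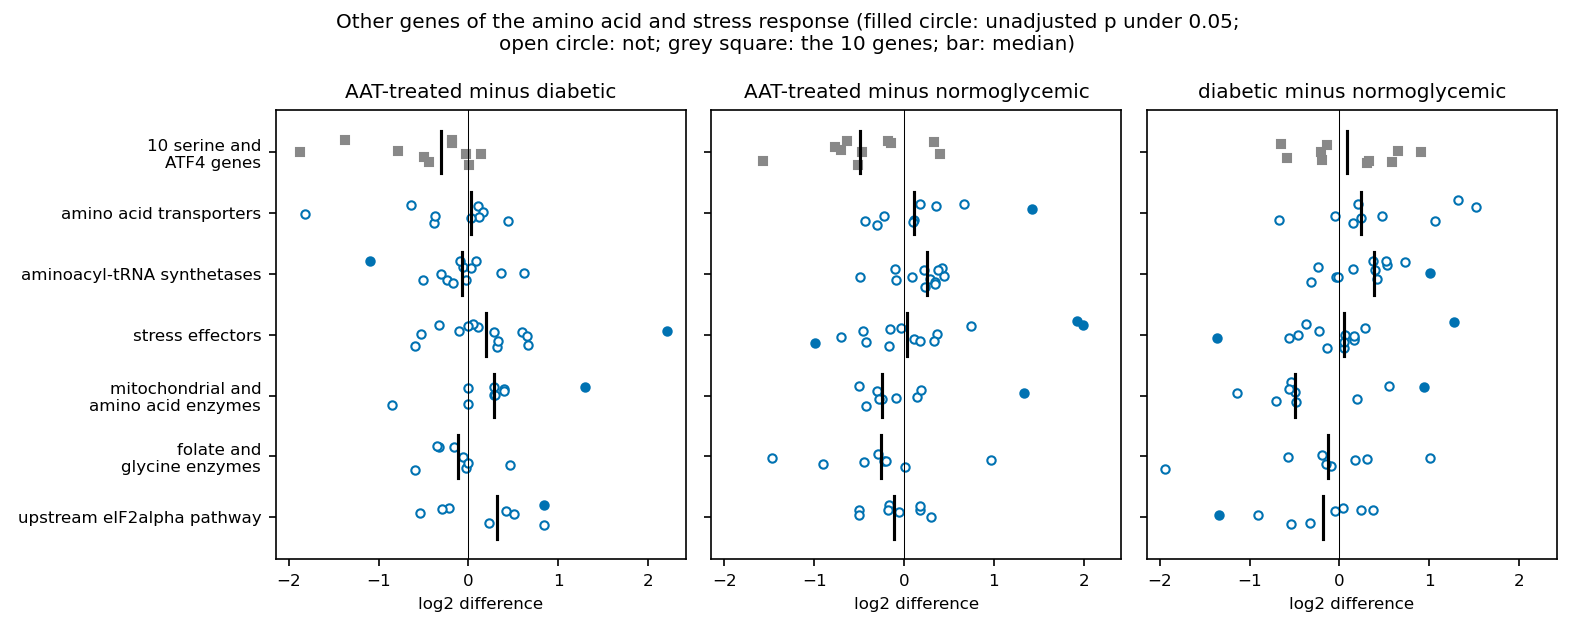
Log2 differences of the 10 genes (grey squares) and of the kept genes of 6 further lists (circles, filled where the unadjusted limma p was under 0.05) in the 3 contrasts, with a bar at each median. The medians of the 6 lists lie between −0.11 and 0.32 for AAT-treated minus diabetic fat, and that of the 10 genes lies at −0.31.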

How the data were processed

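Fat RNA was isolated with Trizol and biotin-labelled in 1 cycle, per the labels' protocols. Each deposited value is a linear intensity, given for 45101 probe sets per array and made with MAS5 (per the submitters' processing notes, which give no version among the sources used here), and the mean without the lowest and highest 2% is 499.9 on every array. MAS5 subtracts mismatch signal and scales each array separately, so weak signals are noisy. The number of arrays limits the precision.

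Names came from the platform annotation, checked against the RefSeq gene table. Of the probe sets 34945 had 1 symbol, 932 several and 9160 none, and 64 were controls. The scale was log2 of the signal plus 74, the 25th percentile over the whole table. Probe sets with a mean signal above 164 (the 40th percentile) were kept, and the highest-mean one stood for each of 13058 genes. Group means of all 6 arrays were fitted with limma 3.58.1 under R 4.3.3 (eBayes with trend, 2-sided, Benjamini-Hochberg over all genes, threshold 0.05; statmod 1.5.0 for the robust alternative), with 3 residual degrees of freedom, and the fit was tested on simulated data. An SE is limma's moderated one, and an SD is over the 2 arrays of a group. Motifs were searched as letters on both strands.

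The members and lists were chosen with earlier results of these data known. Beside the 10 genes, the text names from each other list the 2 kept genes with the smallest unadjusted p in each contrast, and the 5 genes nearest to Psat1. Other genes given with values (the 4 eIF2alpha kinases and cell type markers) are members of the lists and were named after their values were seen. The alternatives were the pseudocount, the filter, quantile normalization, the probe set rule, the variance model, 2 covariates, a replicate block and leaving out each array.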

Additional observations from a re-analysis of the deposited data

How the results depend on the processing

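The Psat1 differences, for which the gene was chosen, ran from −2.04 to −1.43 for AAT minus DIA and −1.81 to −1.20 for AAT minus NOR over the 11 of 20 settings that could move each of them. Counts of genes past limma's adjusted threshold were 0 except 1 for AAT minus DIA with no filter (813 at an unadjusted p under 0.05), 1 for AAT minus NOR with the replicate block crossed for AAT (1039), and 3 for AAT minus NOR without NOR 2 (0 to 3 over the arrays left out). The median of the 10 genes for AAT minus DIA was −0.0233 without _x_at probe sets (8 genes) and ran from −0.47 (without AAT 1) to −0.15 with an array left out. For DIA minus NOR it was −0.094 with the mean of all probe sets, −0.20 without _x_at probe sets, and −0.11 (without NOR 2) to 0.22 with an array left out, so its sign is not settled. For AAT minus NOR it was −0.17 without both bright arrays, and −0.68 (without AAT 1) to −0.27 (without NOR 1) with an array left out.

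For DIA minus NOR the sign turned for Psat1 with the mean of its probe sets (−0.0453), for Atf4 without _x_at probe sets (−0.38), and with the hybridisation-control covariate for Psph (0.27), Ddit3 (0.0769) and Atf4 (−0.0757). With the beta-actin covariate it turned for Phgdh (−2.67), Psph (1.21), Asns (1.77), Ddit3 (0.68) and Atf4 (−3.30), and Psph was at 0.32 without both bright arrays. The beta-actin covariate also moved the median of all genes, to −0.14 for AAT minus DIA, 0.18 for AAT minus NOR and 0.32 for DIA minus NOR. The slope of this covariate rests on differences between arrays of the same group, mostly AAT 1 against AAT 2 (ratios of 9.08 and 5.87). That slope is carried over the wider gap between the groups, so these values cannot separate RNA quality from the groups. In comparisons with AAT fat the beta-actin covariate turned Phgdh, Asns (−1.18), Trib3 and Atf4 (1.37) for AAT minus DIA, and Psph (0.0064), Asns (0.59) and Ddit3 (0.20) for AAT minus NOR. The mean of probe sets turned Asns (−0.31) for AAT minus DIA and Shmt2 (−0.11) for AAT minus NOR. For DIA minus NOR with an array left out, Psph ran from −0.71 to 0.32, Ddit3 from −0.34 to 0.0568 and Mthfd2 from −0.46 to 0.0453. The causes were not tested. The runs without _x_at probe sets, without the bright arrays and with crossed numbers were chosen after seeing the data.

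The replicate block moved the number of genes at an unadjusted p under 0.05 to 453, 503 and 895 for AAT minus DIA, AAT minus NOR and DIA minus NOR, with 0 passing adjustment and the medians unchanged at −0.31, −0.49 and 0.08. Deviations of same-numbered arrays correlated at −0.116 between AAT and DIA, −0.505 between AAT and NOR and 0.075 between DIA and NOR. By the value of −0.505, AAT 2 tended to deviate from AAT 1 as NOR 1 did from NOR 2. AAT 2 and NOR 1 are the bright arrays, and what they share was not tested. The labels give same-numbered samples no link beyond the number, and crossing the AAT numbers gave 969, 1039 and 1878 genes. With 2 arrays a group, differences near the SE could not be detected.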
